A study of Sus scrofa with 20 samples.

Results

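The genes described here encode the matrix proteoglycans that coat collagen fibrils and fill the space around cells: the small leucine-rich proteins DCN (decorin), BGN (biglycan), ASPN (asporin), LUM (lumican), FMOD (fibromodulin), PRELP (prolargin) and OGN (osteoglycin), the large proteoglycans VCAN (versican) and HSPG2 (perlecan), and CILP, a secreted matrix glycoprotein of cartilage and other connective tissue that is grouped with them although it is not itself a proteoglycan of either family. They were listed by symbol and not ranked by any measured value, but earlier results of these data were known. All 10 were matched to an Ensembl gene of the pig count table, which holds 31907 genes. All 10 passed the filter on low counts, which left 16275 genes for testing.

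Nanchukmacdon is a Korean pig line. Backfat, the subcutaneous fat of the back, and liver were taken from 5 boars, and both tissues were sequenced as poly(A) RNA. The count columns of both tissues carry the numbers 65, 67, 69, 71 and 72, which were taken to be the boars. The animals were labelled as normal and 22 months old with no treatment named, although the study's methods give a different mean age. The series holds 20 samples, of which 10 are RNA-seq libraries (5 per tissue) and 10 are bisulfite libraries that are not used here. Each library was made from a whole piece of tissue and so mixes the cell types in it.

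Small leucine-rich proteoglycans consist of a curved protein core, built of leucine-rich repeats, that binds collagen and limits the width of its fibrils, and most carry chains of chondroitin, dermatan or keratan sulfate. Versican is an extended chondroitin sulfate proteoglycan that binds hyaluronan, and perlecan is a heparan sulfate proteoglycan of basement membranes, the sheets that surround each adipocyte and each blood vessel. Fibroblasts and related stromal cells make most of these proteins, and in the normal liver such cells are few and lie around the portal tracts, the vessels and the sinusoids.

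The tissue labels were borne out by marker genes. In CPM (counts divided by the library total and scaled to a common total, here without further scaling), the summed level of 7 adipocyte markers was 14915 to 21882 in backfat and 9.75 to 11.6 in liver, and that of 8 hepatocyte markers was 21580 to 89155 in liver and 205 to 715 in backfat. Library totals were 45157114 to 61772737 counts in backfat and 43820042 to 53768601 in liver, and no pair of libraries was identical. The liver library of boar 67 stood apart, with 44.5% of its counts in mitochondrial genes against 6.38% to 20.2% in the other liver libraries, the lowest hepatocyte sum (21580) and a skeletal muscle marker sum of 132 against 0.47 to 1.48. The backfat library of boar 69 had the highest hepatocyte sum of its tissue (715 against 205 to 299). Each call below was also made without both of these libraries.

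Of the 10 genes, 7 were called higher in backfat than in liver and 0 were called higher in liver. A gene was called at a Benjamini-Hochberg adjusted p of 0.05 or less in edgeR's quasi-likelihood test if its log2 fold change was also 2 or more in size. By the same rule 11.1% of all genes tested were called higher in backfat and 11.2% higher in liver. Every backfat library lay above every liver library for 8 of the 10, which held for 22.9% of all genes tested. LUM and CILP differed most, DCN, ASPN, OGN and VCAN by log2 fold changes of 4.04 to 4.87, and HSPG2 by 2.81, whereas FMOD lay just under the fold threshold and BGN and PRELP were present in both tissues with overlapping levels. The median log2 fold change of the 10 was 4.24, and that of all genes tested was 0.00. With library size alone in place of the scaling described below, the median of all genes shifted to 0.71 and the calls over all genes went from 1814 higher in backfat and 1819 higher in liver to 2874 and 1340, and the same 7 members and FMOD were called.

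The sequence just upstream of the annotated start is shown for the pair of genes with the largest difference between tissues, LUM and CILP, and for BGN and HSPG2, because these pairs lay at opposite ends in CpG content, and CpG is among the contexts in which the study measured methylation. Each is the 250 bases before the first base of the RefSeq gene on Sscrofa11.1, read 5′ to 3′ on the gene's strand, with CpG dinucleotides in capitals: LUM at chr5:91748621-91748870 on the plus strand, CILP at chr1:163271223-163271472 on the minus strand, BGN at chrX:124281798-124282047 on the plus strand and HSPG2 at chr6:79958284-79958533 on the minus strand.
LUM: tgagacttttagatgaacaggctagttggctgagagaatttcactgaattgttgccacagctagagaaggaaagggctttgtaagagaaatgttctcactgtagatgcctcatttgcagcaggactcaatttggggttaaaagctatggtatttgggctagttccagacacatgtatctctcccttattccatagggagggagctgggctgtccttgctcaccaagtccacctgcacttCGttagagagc
CILP: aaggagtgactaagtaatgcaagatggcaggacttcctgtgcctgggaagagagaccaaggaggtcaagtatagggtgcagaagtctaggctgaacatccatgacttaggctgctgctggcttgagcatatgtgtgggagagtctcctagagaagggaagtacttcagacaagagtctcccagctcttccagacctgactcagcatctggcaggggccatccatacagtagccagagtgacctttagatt
BGN: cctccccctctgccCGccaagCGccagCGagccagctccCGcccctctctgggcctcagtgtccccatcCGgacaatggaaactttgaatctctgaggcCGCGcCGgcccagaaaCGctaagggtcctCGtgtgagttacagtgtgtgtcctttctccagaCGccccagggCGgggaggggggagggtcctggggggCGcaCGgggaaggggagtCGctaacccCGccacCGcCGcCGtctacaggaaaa
HSPG2: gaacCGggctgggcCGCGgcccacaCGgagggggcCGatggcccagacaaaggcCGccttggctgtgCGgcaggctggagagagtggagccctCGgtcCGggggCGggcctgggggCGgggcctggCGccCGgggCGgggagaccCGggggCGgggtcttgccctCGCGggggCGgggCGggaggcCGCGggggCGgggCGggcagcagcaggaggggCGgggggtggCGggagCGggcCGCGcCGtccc

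The HSPG2 window held 30 CpG dinucleotides and the BGN window 19, while the other 8 members had 0 to 4 (OGN 0, CILP 0, LUM 1, ASPN 1, VCAN 2, FMOD 3, DCN 4 and PRELP 4). Over the same windows of 19569 genes the median was 12 and the quartiles were 4 and 22, so HSPG2 lay at the upper end and 8 members at or under the lower quartile. The letters GGGCGG, the GC box, searched on both strands, occurred 9 times before HSPG2 and 2 times before BGN and in no other member, against 45.9% of all windows with a match. The letters TATAAA, searched on both strands, were found before ASPN and VCAN, against 9.77% of all windows. A match in these letters is a description of the window, and whether transcription starts at the annotated base was not tested.

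DCN binds collagen fibrils through its core and carries a single chondroitin or dermatan sulfate chain. Its normalized level, in CPM scaled by the trimmed mean of M values (TMM), was 855, 942, 1191, 1070 and 1385 in the backfat of boars 65, 67, 69, 71 and 72 and 25.3, 57.2, 24.5, 84.7 and 58.2 in their livers. Every backfat library was at least 10 times any liver library, and the liver libraries of boars 65 and 69 were the lowest. The log2 fold change was 4.45 ± 0.40 (SE, n = 5 per tissue, adjusted p = 1.52e-06).

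BGN, the closest relative of DCN and usually a carrier of a pair of such chains, behaved differently. It stood at 464, 381, 454, 498 and 527 CPM in backfat and at 173, 515, 148, 477 and 341 CPM in liver, in the same boar order. The groups overlapped: liver 67 and liver 71 reached the backfat levels, liver 65 and liver 69 lay far below, and backfat was higher in 4 of 5 boars. The means were 465 ± 55.0 CPM and 331 ± 168 CPM (SD, n = 5), and the log2 fold change of 0.49 (95% interval −0.25 to 1.23, adjusted p = 0.242) was not called. The interval leaves out a 4-fold difference but not a 2-fold one.

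ASPN, a relative of DCN with a run of aspartates that binds collagen and TGF-beta, was measured at 123, 186, 178, 162 and 252.2 CPM in backfat and 3.96, 8.15, 2.80, 9.73 and 6.18 CPM in liver. The groups were far apart, and the order of the liver libraries matched that of DCN at its lower end. Its log2 fold change was 4.87 ± 0.37 (adjusted p = 3.03e-07).

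LUM, a keratan sulfate proteoglycan that regulates fibril spacing, showed the largest difference. It reached 414, 571, 627, 916 and 939 CPM in backfat and only 1.02, 2.59, 2.10, 1.01 and 1.46 CPM in liver. Backfat 65 was the lowest of its tissue, and the liver level of 32 to 99 counts per library was low but counted in each. The means were 694 ± 228 CPM and 1.64 ± 0.69 CPM, and the log2 fold change was 8.72 ± 0.45 (adjusted p = 1.73e-08).

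FMOD, which shares collagen binding sites with LUM, was measured at 133, 86.4, 112, 152 and 162 CPM in backfat and 19.7, 42.7, 16.4, 57.9 and 30.6 CPM in liver. Every backfat library was above every liver library, but liver 71 came within 1.5-fold of backfat 67. The log2 fold change was 1.95 ± 0.33 (95% interval 1.22 to 2.67, adjusted p = 0.000314), under the threshold of 2 by less than its error. With the boar as a block, which pairs the tissues of each animal, it was 2.07 (adjusted p = 0.000453) and 8 of the 10 genes were called. Without the libraries liver 67 and backfat 69 it was 2.10.

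PRELP, a basic protein that links basement membranes to collagen, was the other gene found at like levels in both tissues. Its CPM were 32.6, 22.6, 36.0, 17.0 and 18.4 in backfat and 22.0, 26.7, 16.0, 29.7 and 20.5 in liver. The ranges overlapped almost entirely, and backfat was higher in 2 of 5 boars. The log2 fold change was 0.14 (95% interval −0.39 to 0.67, adjusted p = 0.648), so a difference of 2-fold lay outside the interval. With library size alone, which shifts all genes towards backfat, the log2 fold change was 0.90 for PRELP (adjusted p = 0.00684) and 1.28 for BGN (adjusted p = 0.00193), both still under the fold threshold.

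OGN, a small leucine-rich protein of fibrous tissue and bone, had 303, 360, 417, 396 and 439 CPM in backfat and 5.89, 42.3, 5.88, 13.0 and 9.52 CPM in liver. Liver 67 was over 3 times the next liver library, and no liver library reached backfat. The log2 fold change was 4.64 ± 0.56 (adjusted p = 1.77e-05), and it was 5.44 without liver 67. CILP was measured at 234, 287, 187, 208 and 102 CPM in backfat and 1.00, 1.57, 0.72, 0.41 and 0.65 CPM in liver. Its liver values rested on 13 to 58 counts per library, with liver 67 again the highest, and backfat 72 was the lowest of its tissue. The log2 fold change was 7.86 ± 0.44 (adjusted p = 2.95e-08).

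VCAN was measured at 92.1, 111, 109, 124 and 106 CPM in backfat and 7.31, 8.42, 5.27, 5.47 and 6.48 CPM in liver. Its libraries did not overlap between tissues and spread by 1.35-fold within backfat and 1.60-fold within liver. The log2 fold change of 4.04 ± 0.18 (adjusted p = 7.64e-09) had the smallest error of the 10. HSPG2 had the highest count level in backfat, 1454, 1524, 1243, 1321 and 1432 CPM, and 148, 303, 128, 233 and 185 CPM in liver. Its backfat libraries differed by at most 1.23-fold, and its log2 fold change was 2.81 ± 0.30 (adjusted p = 5.49e-06).

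**Figure D1:**
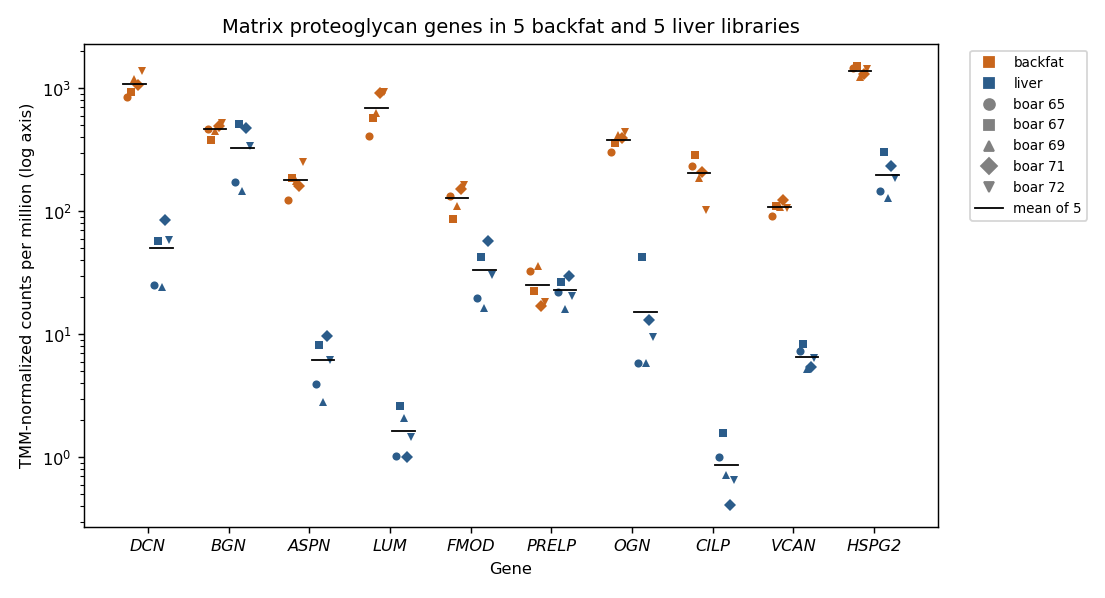
TMM-normalized CPM (log axis) of the 10 genes in the 5 backfat libraries and the 5 liver libraries, with a symbol for each boar and a line at each mean. LUM and CILP are farthest apart between tissues, while the points of BGN and PRELP overlap and those of FMOD come close.

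The spread within liver had an order that several members shared. Liver 69 was the lowest liver library for 8 of the 10 genes, liver 67 the highest for 6 and liver 71 for the other 4, and liver 65 and liver 69 were the lowest pair for 6. The highest BGN library was 3.49 times the lowest in liver, against 1.38 times in backfat. The livers of boars 65 and 69 also had the smallest shares of mitochondrial counts (6.97% and 6.38%, against 11.9% to 44.5%) and the largest TMM scaling factors (0.916 and 0.876, against 0.649 to 0.760), and without TMM the range of BGN in liver was 2.87-fold. Their part in the order was not tested.

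Levels can be compared between genes only per length of transcript. On the scale of TMM CPM per kb of exon, the summed level of the 10 genes was 1461 ± 219 in backfat and 266 ± 130 in liver (SD, n = 5), a ratio of means of 5.49, with 1212 to 1772 in the backfat libraries and 125 to 403 in the livers. As a share of all counts the genes took 0.598% ± 0.0279 in backfat and 0.0499% ± 0.0169 in liver. The make-up of the sum was not alike. DCN made up 39.4% ± 2.55 of the backfat sum and 10.1% ± 1.69 of the liver sum, whereas BGN made up 19.6% ± 2.24 in backfat and 75.0% ± 2.35 in liver. LUM took 14.7% in backfat and 0.24% in liver, and PRELP 0.46% in backfat and 2.57% in liver.

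In backfat the order of levels per kb was DCN (579), BGN (284), LUM (220), OGN (132), HSPG2 (90.6), ASPN (66.7), FMOD (40.3), CILP (39.4), PRELP (6.52) and VCAN (4.16). Of these neighbours, DCN and BGN, OGN and HSPG2, and CILP and PRELP did not overlap in their ranges, and the other neighbours did. In liver the order was BGN (202), DCN (26.6), HSPG2 (12.9), FMOD (10.5), PRELP (5.92), OGN (5.27), ASPN (2.28), LUM (0.52), VCAN (0.25) and CILP (0.17), where BGN and DCN, and ASPN and LUM, did not overlap. DCN ranked 65 among the 16275 genes tested in backfat and 1673 in liver, while BGN ranked 117 and 247. The exon length in the count table differs from the RefSeq models for several members, most for VCAN (26088 against 12674 bases). With the RefSeq lengths LUM (358) stood above BGN (193) in backfat and VCAN above PRELP, and the share of BGN was 11.8% in backfat and 64.7% in liver, still the highest there. The liver shares of DCN and LUM were then 16.1% and 0.50%.

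**Figure D2:**
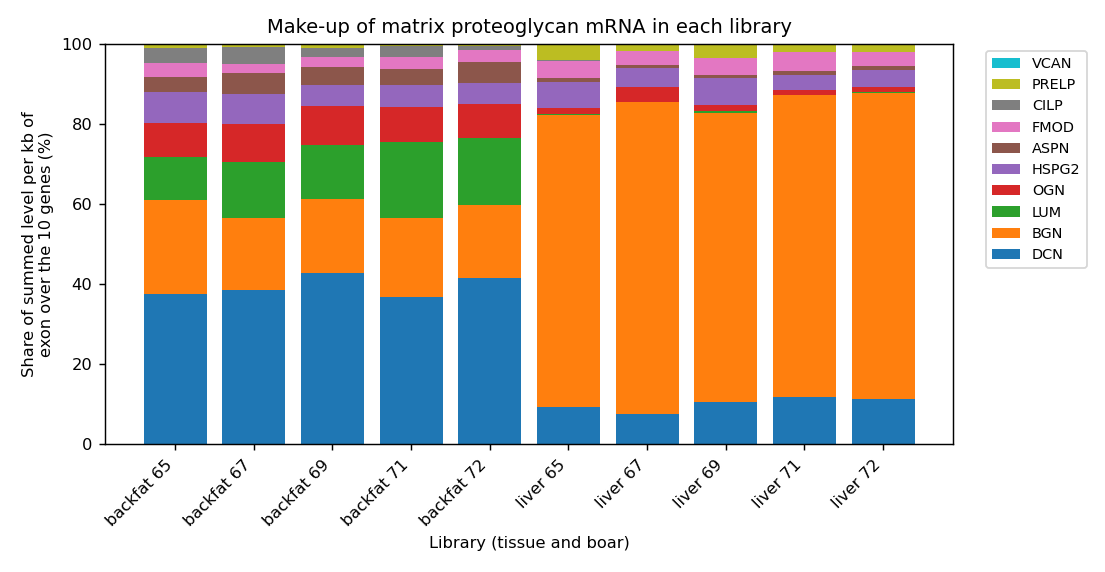
Share of each gene in the summed level per kb of exon over the 10 genes (%), a stacked bar for each library. DCN is the widest band in the 5 backfat bars, and BGN takes 75.0% of the liver bars on average.

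Ratios between members in the same library do not depend on how libraries are scaled against each other. Thus 6 pairs were compared by an exact two-sided permutation test, with adjustment over the 6. They were pairs of related small leucine-rich genes or of genes in the same cluster, and the pair of large proteoglycans VCAN and HSPG2. These pairs, too, were chosen with earlier results of these data known. The smallest p that 5 against 5 libraries can give is 0.00794, or 0.00952 after adjustment when 5 pairs reach it. DCN per kb was 2.72 times LUM in backfat and 48.5 times LUM in liver, a change in log2 ratio of −4.16 from liver to backfat. DCN per kb was 2.02 times BGN in backfat and 0.132 times BGN in liver, a difference of 3.93. With the RefSeq exon lengths these ratios were 3.77 and 0.247, and the difference on the log2 scale is the same for any length. Thus the more abundant of these close relatives was DCN in each backfat library and BGN in each liver library.

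LUM to FMOD differed most, from 5.34-fold per kb in backfat to 0.0519-fold in liver (6.68 on the log2 scale), or from 8.69-fold to 0.0846-fold with the RefSeq lengths. FMOD to PRELP differed by 1.96, and VCAN to HSPG2 by 1.18 on the log2 scale. These 5 ratios did not overlap between tissues, each at an exact permutation adjusted p of 0.00952, and each moved the same way in 5 of 5 boars. When the tissues were paired within animals, an exact sign-flip test had a lowest possible p of 0.0625, and all 5 stood at this value (adjusted p = 0.075). ASPN to OGN was the exception, with log2 ratios of −1.11 ± 0.22 in backfat and −1.01 ± 0.80 in liver (difference −0.10, exact permutation adjusted p = 0.857). Its lowest liver ratio, −2.37, came from liver 67, and without this library the difference was −0.44 (adjusted p = 0.0476, exact permutation).

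**Figure D3:**
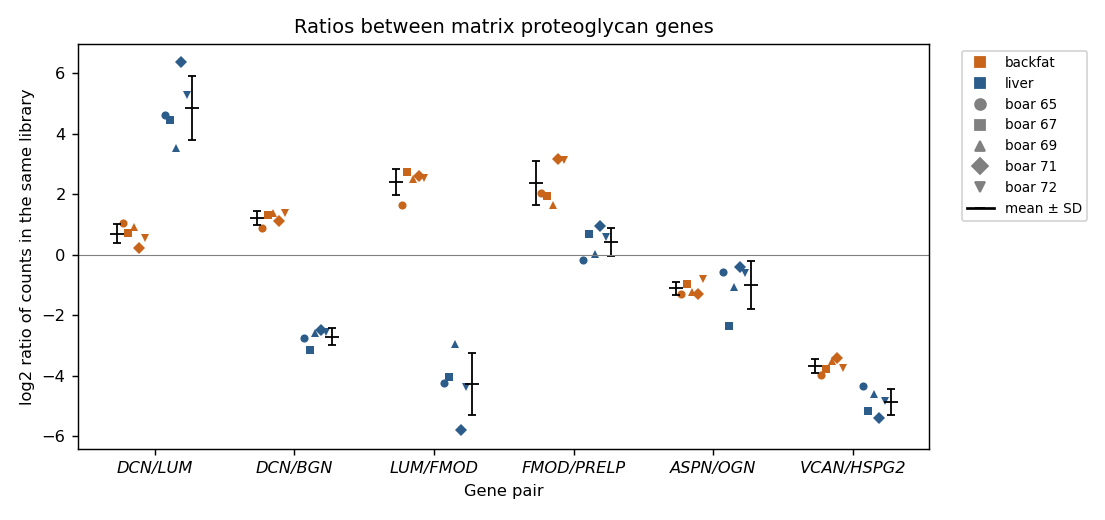
Log2 ratio of the counts of 2 members in the same library for 6 pairs, with a symbol for each boar and the mean ± SD beside each group of 5 libraries. Backfat and liver do not overlap for 5 pairs, and for ASPN to OGN they do.

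Most of the small leucine-rich genes lie in clusters, in the RefSeq annotation of Sscrofa11.1. DCN, LUM, KERA and EPYC follow each other on the plus strand of chromosome 5 within 199.2 kb (chr5:91678601-91877779), OGN, OMD, ASPN and ECM2 lie on the minus strand of chromosome 3 within 127.2 kb (chr3:42116521-42243746), and FMOD, PRELP and OPTC lie on chromosome 9 within 158.0 kb (chr9:64062995-64220982). No other protein-coding gene starts and ends between neighbours. BGN is on chromosome X, VCAN on chromosome 2, HSPG2 on chromosome 6 and CILP on chromosome 1.

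In the first cluster KERA (keratocan, a keratan sulfate proteoglycan of the cornea) had 36.3, 21.1, 41.0, 46.7 and 58.7 CPM in backfat and no count in any liver library, which puts backfat at least 2622-fold higher when set against a floor of 3 counts over the liver group. EPYC (epiphycan) had 2 to 11 counts per backfat library, none in liver, and was not tested. All 3 tested genes of this cluster were therefore called higher in backfat, but the liver retained DCN at 26.6 CPM per kb beside 0.52 for LUM.

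In the second cluster OMD (osteomodulin) was higher in backfat by 6.72 ± 0.48 and ECM2, a matrix protein with leucine-rich repeats, by 5.36 ± 0.29 on the log2 scale, so all 4 genes were called. In the third, FMOD and PRELP, separated by 117.1 kb, differed in their response, as their ratio shows, and OPTC (opticin), next to PRELP, was near 0 in both tissues. Counting did not use strand. OGN, OMD, ASPN and ECM2 lie inside CENPP on the opposite strand without sharing annotated exon bases, PRELP overlaps LOC106507842 on the opposite strand by 4989 bases, likewise without shared exon bases, and HSPG2 shares 621 of its 14863 exon bases with LDLRAD2, so reads from these overlaps cannot be told apart.

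**Figure D4:**
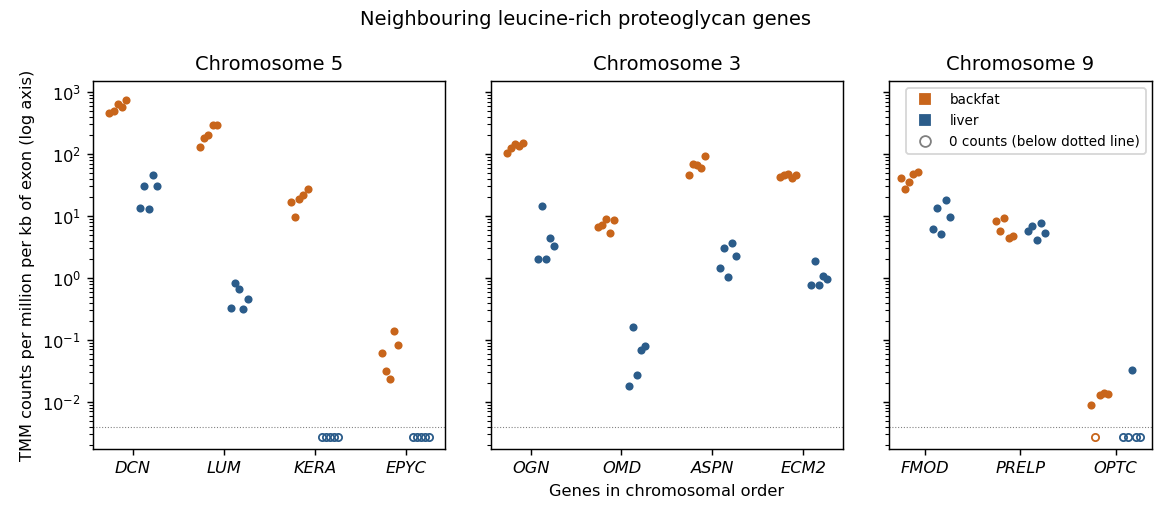
TMM CPM per kb of exon (log axis) for the genes of the 3 clusters in chromosomal order, a point for each library, with open circles below the dotted line for libraries at 0 counts. The 4 genes on chromosome 3 are all higher in backfat, KERA and EPYC have no count in liver, and PRELP overlaps between tissues.

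Each member was also set beside the genes whose pattern over the 10 libraries was most like its own. The measure was the root mean square difference in log2 of CPM + 0.5 after centring, which describes mainly the size of the tissue difference. The added 0.5 narrows this difference for genes with few counts in a tissue. THBS4, given below as nearest to LUM, had a log2 fold change of 11.6, against 8.72 for LUM. DCN and ASPN were each other's nearest members (0.24), and BGN and PRELP (0.58), FMOD and HSPG2 (0.54) and LUM and CILP (0.87) paired likewise, while OGN was nearest to ASPN (0.52) and VCAN to HSPG2 (0.62). Among other genes, COL5A1 (0.22) and DPYSL3 (0.29) came nearest to DCN, LAMA4 (0.32) and COL5A1 (0.34) to ASPN, and LIPE (0.37) and COL5A3 (0.41) to CILP. THBS4 (0.56) and CYP4B1 (0.63) were nearest to LUM, MGLL (0.32) and GAS6 (0.40) to OGN, and CAV2 (0.22) and MARK1 (0.23) to VCAN. IQCC (0.18) and PAOX (0.21) were nearest to BGN, SCARF2 (0.22) and HR (0.25) to FMOD, PATZ1 (0.15) and TAS1R3 (0.19) to PRELP, and GUCA1B (0.16) and FBXL7 (0.17) to HSPG2.

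The other genes of the pathway were taken from 9 lists by function, and 97 of the 115 listed genes were tested. Of these, 37 were called higher in backfat and 12 higher in liver, with a median log2 fold change of 0.64. Over all genes tested the shares called were 11.1% higher in backfat and 11.2% higher in liver. The split differed between the lists, some of which held few genes. Of the 15 fibrillar collagens and partners, the fibrils on which the small proteoglycans sit, 14 were called higher in backfat, with a median of 4.26 close to that of the members. COL5A3 (7.22), COL3A1 (6.16) and COL1A2 (5.85 on the log2 scale) led, and FN1 (fibronectin, also made by hepatocytes) was higher in liver by a log2 fold change of −2.45.

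Among 9 other small leucine-rich proteins, 3 were called higher in backfat (KERA, OMD and ECM2) and 1 in liver, TSKU (tsukushi, also a liver-secreted protein), at −2.65. With the boar block the counts were 4 and 1. Another 2 genes lay under the fold threshold without overlap between tissues. PODN was higher in liver (−1.85, adjusted p = 0.000362, with means of 733 CPM in liver and 204 CPM in backfat). CHAD was higher in backfat (1.98, adjusted p = 0.00197). Without liver 67, 6 genes of the list were called, 4 of them higher in backfat. Among 8 other large and secreted proteoglycans and related proteins the counts were 3 and 1 (2 and 1 of 7 without BMPER, a secreted BMP-binding glycoprotein that is not a proteoglycan), with SPOCK1 (6.26 CPM in backfat and 0.39 CPM in liver), BMPER (2.86) and ESM1 (2.46) on one side and COL18A1, a basement membrane collagen with heparan sulfate chains, on the other (−2.73, at 178 CPM in backfat and 1181 CPM in liver). HSPG2 and COL18A1, both heparan sulfate proteoglycans of basement membranes, were thus called in opposite directions. Of 11 cell surface proteoglycans, 4 were higher in backfat, led by CSPG4 (4.19), GPC6 (3.98) and GPC1 (3.86), and 2 in liver, the syndecans SDC1 (−3.43) and SDC2 (−2.24).

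Most enzymes that build the sugar chains were not called, as held for all genes tested (11.1% called higher in backfat and 11.2% in liver). Of 6 enzymes for the linkage to the core, only XYLT1 (2.80), which adds the starting xylose, was called. Of 14 enzymes for chondroitin and dermatan sulfate, the chains of DCN, BGN and VCAN, 5 were called higher in backfat and 1 in liver, with a median of 1.55. They included CHST3 (3.95), CHST14 (2.76) and DSE (2.69), of which the last pair act in making dermatan sulfate, and CHST13 (−3.27) was higher in liver. Of 16 enzymes for heparan sulfate, the chain of HSPG2, 1 was called in each direction with a median of −0.70: HS6ST2, at 0.68 CPM in backfat and at 0 in liver (at least 43.7-fold), and EXTL1 (−10.80). With the boar block the counts were 1 and 2. By the adjusted p alone, without the fold threshold, 3 of the 16 were higher in backfat and 9 in liver. The share of all genes by this looser rule was not worked out, so no lean of the list can be read from these counts. Of 5 enzymes for keratan sulfate, the chain of LUM and FMOD, B4GALT4 (4.09) and CHST2 (2.39) were called higher in backfat and B3GNT7 (−2.11) in liver. The list as drawn up also held SLC35D1 (−2.98, called higher in liver), a transporter of the precursors of chondroitin sulfate and not of keratan sulfate, which makes the counts 2 and 2 of 6.

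Hyaluronan, the partner of VCAN, is made by synthases and held by link proteins. The list used here also held other hyaluronan genes, such as TNFAIP6 and CEMIP, which are neither. Of its 12 tested genes, 4 were called higher in backfat and 3 in liver. TNFAIP6 (7.24), HAS2 (6.72) and HAS1 (4.80) led in backfat, and HAPLN4 (−3.87), CEMIP (−2.96) and HAPLN3 (−2.06) in liver. With the boar block the counts were 4 and 2. HAS1 rested on 0 to 4 counts per liver library.

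**Figure D5:**
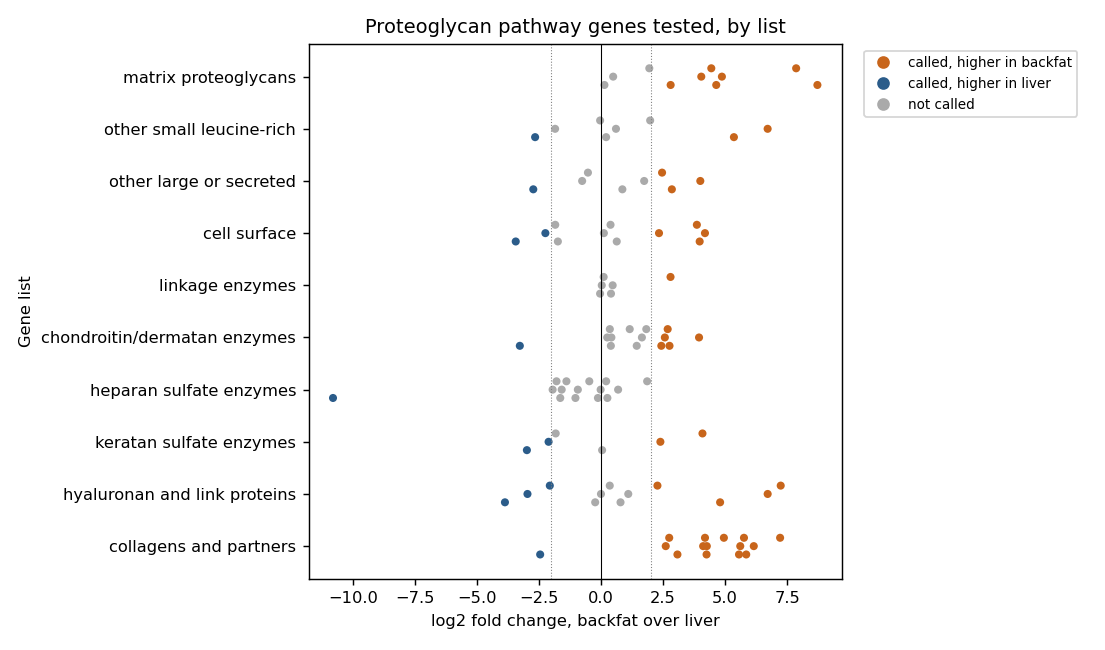
Log2 fold change of backfat over liver for each tested gene of 10 lists, with dotted lines at the threshold of 2 in either direction. KERA and HS6ST2, which have counts in backfat but none in liver, are left out. The matrix proteoglycans and the collagens lie mostly to the right, and 14 of the 16 heparan sulfate enzymes lie uncalled between the dotted lines, on both sides of 0.

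Markers of the cells that make matrix are given beside these results, on the TMM CPM scale used for the members. The summed level of 8 fibroblast and adipose stroma markers was 752 to 917 in backfat and 463 to 649 in liver, a ratio of means of 1.57, with 5 called higher in backfat and 1 (DPP4) in liver. Without TMM the same sums were 889 to 1174 and 348 to 424. The liver sum came mainly from FBLN1 and DPP4, with means of 290 and 179 CPM in liver against 137 and 4.06 CPM in backfat. FBLN1 was not called (log2 fold change −1.08), though every liver library lay above every backfat library. Each of the other markers in this list had a higher mean in backfat. The sum of 9 hepatic stellate cell markers was 451 to 692 in backfat and 261 to 359 in liver, but 4 of these (LRAT, RELN, COLEC11 and HAND2) were called higher in liver and 1 (RGS5) in backfat. The higher sum in backfat came mainly from PDGFRB and RGS5, which pericytes also express.

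The sum of 6 smooth muscle markers was 382 to 618 in backfat and 208 to 413 in liver, with 0 called, and that of 5 endothelial markers was 901 to 1286 and 217 to 585, with 3 called higher in backfat. None of the markers in these 4 lists was at 0 in every library of a tissue. Sums of 9 cartilage and tendon markers were 10.9 to 38.0 in backfat and 16.5 to 41.2 in liver, with 2 genes at 0 in liver. Of these markers, 2 were called higher in backfat (TNMD and COL11A1) and 2 in liver (COMP and SOX9). The part of these cells in the members' differences was not tested, and in whole tissue fewer cells of a type and less RNA per cell cannot be told apart.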

How the data were processed

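The authors deposited a table of raw counts of read pairs per gene, made with featureCounts 2.0.1 in paired mode over Ensembl release 99 exons of Sscrofa11.1 without strand, from reads trimmed with Trimmomatic and aligned with HISAT2, per the study's methods. The M-bias reports of the bisulfite libraries were not used. Columns were assigned to a tissue by their names, which also carry the number taken as the boar. The table's Ensembl IDs were paired with symbols from a reference table of gene names.

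Counts were filtered with filterByExpr, scaled by TMM and tested with edgeR 4.0.16 (quasi-likelihood, tissue as the only term) in R 4.3.3, with Benjamini-Hochberg adjustment over 16275 genes. Genes were called when the adjusted p was 0.05 or less and the log2 fold change 2 or more in size. The test was checked on simulated data. Alternatives used DESeq2 1.42.0, limma 3.58.1, other scalings and filters, a boar block and fewer libraries. Within-library ratios used counts + 0.5 and exact permutation tests (scipy 1.17.1). Levels per kb used the table's exon length. Sequences came from the RefSeq genome of the same build.

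All 10 members were named. From each related list, called genes with the largest log2 fold changes were named, at most 3 in each direction with at least 10 counts in every library of 1 tissue, with the neighbours in the clusters. For each member the nearest member and the nearest 2 other genes were named. PODN and CHAD, which were not called, were named besides. The members, lists and tests were chosen with earlier results of these data known.

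Backfat and liver columns with the same number were taken to come from the same animal, which the labels do not state. The correlation of their deviations from the tissue means was 0.226, 0.0945, 0.0359, 0.173 and 0.121 for boars 65, 67, 69, 71 and 72. Columns with different numbers were not compared in this way, so these values cannot test the pairing. Summed CPM of other marker lists, without TMM, were 159 to 350 in backfat and 229 to 312 in liver for macrophages. They were 14.3 to 619 and 0.47 to 132 for skeletal muscle, and 133 to 577 and 62.8 to 1283 for red cells. For skin epidermis they were 7.46 to 9.44 and 7.03 to 14.6. Only 1 of 6 mesothelium markers was matched (at most 0.60 and 0.61).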

Additional observations from a re-analysis of the deposited data

Results flagged for a closer look

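In 2 of 32 groups of 5 libraries a library lay apart from the others of its tissue by Dixon's test, with the gap to its nearest neighbour over 0.71 of the range. By chance about 1 in 20 groups would. OGN stood at 42.3 TMM CPM in liver 67 against 13.0 TMM CPM in the next library. In CPM without TMM, liver 67 also had the highest liver sums of skeletal muscle (132), red cell (1283) and endothelial markers (422). On the TMM scale its endothelial sum was 585 CPM, of which EGFL7 made up 408 CPM. The part of these cells in the OGN level was not tested. The log2 ratio of LUM to FMOD was 1.64 in backfat 65 against 2.49 in the next library. Backfat 65 had the highest skeletal muscle sum of its tissue (619 CPM without TMM, against 14.3 to 206), the part of which was not tested.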

How the results depend on the processing

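The member calls numbered 7 or 8 of 10 under each of the other settings tried and with each library left out (7 to 8), and FMOD was the gene that changed: its log2 fold change passed the threshold with library size alone (2.73), with no filter on low counts (2.02), in limma-voom (2.09), with the boar block (2.07), without liver 67 and backfat 69 (2.10) and without backfat 67, backfat 69, liver 67 or liver 71, each in turn (1.77 to 2.21 over all 10 libraries left out). The block changed no other member's call, and among the related lists it moved the counts of the other small leucine-rich proteins, the heparan sulfate enzymes and the hyaluronan genes by 1 each. PRELP ranged from −0.014, without backfat 69, to 0.26 when each library was left out. Related genes called numbered 36 to 54 against 49, and 49 to 55 with each library left out; with at least 10 counts in every library, 871 genes in all were called higher in backfat against 1814. That filter left fewer genes to test, 13026 against 16275 in all and 80 against 97 of the related genes. Genes with few liver counts, such as KERA and OMD, were not tested under it. The calls were then 2 of 6 other small leucine-rich proteins, 2 of 6 other large proteoglycans, 2 of 7 hyaluronan genes and 0 of 12 heparan sulfate enzymes. For the heparan sulfate enzymes the count was 4 without liver 72 and 4 without liver 67 and backfat 69. For the ratios, the paired sign-flip test gave adjusted p = 0.075 for DCN to LUM (−4.16), DCN to BGN (3.93), LUM to FMOD (6.68), FMOD to PRELP (1.96) and VCAN to HSPG2 (1.18), since 5 pairs allow no lower p than 0.0625. ASPN to OGN ranged from −0.44 (without liver 67) to 0.044 (without liver 71), and it was 0.01 without liver 65 and 0.23 from pooled counts. Few counts limit LUM and CILP in liver, at 32 to 99 and 13 to 58 counts per library. RefSeq exon lengths in place of those of the table, chosen after seeing the data, moved shares and ratios per kb, as given with those values, and marker sums with TMM, the keratan sulfate list without SLC35D1 and the secreted list without BMPER were also added after seeing the data.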
